A study of Mus musculus with 2 samples.

Results

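Mir204, Mir211, Mir135a-1, Mir135a-2 and Mir135b are 5 mouse microRNA (miRNA) genes whose products are known to act on osteoblast differentiation. They were taken by symbol from tables of 1973 miRNA genes, after the Ensembl identifiers had been matched to GENCODE symbols, and all 5 had a row. The data came from microRNA-seq of B6NCrl mouse limbs at embryonic day 15.5, with males and females pooled. The series had 1 group of 2 biological replicates, with limbs of 78 embryos in replicate 1 and of 62 embryos in replicate 2. There was no second stage, tissue or treatment, so the values describe levels in the limb and how the pools differed.

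A miRNA pairs through its seed, bases 2 to 8 of the mature strand, with sites in the 3′ untranslated region (UTR) of messenger RNAs and lowers their output. Runx2 is the transcription factor that commits mesenchymal cells to the osteoblast lineage and drives maturation of growth plate chondrocytes. In cell culture, miR-204 and its homolog miR-211 are known to repress Runx2 in mesenchymal progenitors and to favour adipocytes over osteoblasts, miR-135a is one of a group of miRNAs known to repress Runx2, and miR-135 is known to repress Smad5, a transducer of BMP signals. The limb at this stage holds cartilage models, the first bone collars, muscle, vessels, nerves and epidermis in 1 tissue, and the counts do not say which of these cells made a miRNA. Fewer cells of a type and less RNA per cell cannot be told apart in such pools.

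The mature strands are shown because they decide which genes can be told apart by reads and which messages share a site. They are the RefSeq sequences on GRCm38.p6, written 5′ to 3′ with the seed in capitals.
miR-204-5p: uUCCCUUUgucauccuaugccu
miR-211-5p: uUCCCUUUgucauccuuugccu
miR-135a-5p: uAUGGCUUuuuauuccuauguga
miR-204-3p: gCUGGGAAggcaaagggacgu
miR-211-3p: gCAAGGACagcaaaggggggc
miR-135a-1-3p: uAUAGGGAuuggagccguggcg
miR-135a-2-3p: uGUAGGGAuggaagccaugaa
miR-135b-3p: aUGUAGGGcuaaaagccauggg
The 5p strands of miR-204 and miR-211 carry the same seed and differ at 1 base, A17U, counted from 1 at the 5′ end with the miR-204 base first. Their 3p strands have different seeds and 7 differences over 21 bases. For Mir135b only the 3p strand was found in the RefSeq table, so miR-135b-5p is not shown. As background, miR-135b-5p, of the same family as miR-135a-5p, is known to have the same seed. A further mature miRNA in the RefSeq table, miR-7670-3p, carries the seed UCCCUUU.

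The strand miR-135a-5p is the same at both Mir135a genes. The hairpins of both copies are shown because the stretch they have in common, in capitals, limits what their counts can hold.
Mir135a-1: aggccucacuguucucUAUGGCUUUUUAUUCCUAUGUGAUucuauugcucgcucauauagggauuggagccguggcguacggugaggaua
Mir135a-2: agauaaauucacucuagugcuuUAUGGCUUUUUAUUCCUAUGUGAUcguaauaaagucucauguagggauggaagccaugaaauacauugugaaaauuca
The shared run is 24 bases long, at bases 17 to 40 of the Mir135a-1 hairpin and 23 to 46 of the Mir135a-2 hairpin, and it holds the whole of miR-135a-5p with 1 base beyond it. The count tables total reads with several alignments on a line of their own, which took 29.4% of all reads in replicate 1 and 29.7% in replicate 2. A read that lies inside the shared run aligns to both copies, and a full-length miR-135a-5p read is such a read. The counts of Mir135a-1 and Mir135a-2 thus leave out reads common to both, and both levels can be too low by an unknown amount. Mir204 and Mir211 share at most 17 bases with each other or with any other of the 1893 miRNA hairpins compared, and Mir135b at most 14. These are exact runs, and the mismatches allowed in alignment are not known. The 5p strands of miR-204 and miR-211 differ at 1 base, and whether reads of one were counted for the other was not tested.

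On mm10, Mir204 (ENSMUSG00000065507) sits on chromosome 19 (plus strand, 22750605 to 22750672) in an intron of the channel gene Trpm3. Mir211 (ENSMUSG00000065585) sits on chromosome 7 (plus strand, 64205806 to 64205911) in an intron of Trpm1, a channel gene of melanocytes and retinal bipolar cells. Both are thus carried by paralogous TRPM channel genes and read in the direction of the host. Mir135b (ENSMUSG00000065435) sits on chromosome 1 (plus strand, 132198088 to 132198184) in introns of Lemd1 and of the overlapping AC124108.1. Mir135a-1 (ENSMUSG00000065407) sits on chromosome 9 (plus strand, 106154124 to 106154213) in an intron of the noncoding D030055H07Rik, and opposite an exon of the glycerate kinase gene Glyctk. Mir135a-2 (ENSMUSG00000065524) sits on chromosome 10 (minus strand, 92072086 to 92072185) in an intron of Rmst, a long noncoding RNA known from neural differentiation.

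The libraries held 4263630 sense counts of miRNA genes in replicate 1 and 5151214 in replicate 2. Levels are sense counts divided by the library's sense total, times 1000000 (CPM), and 3 counts, the most that a count of 0 allows, equal 0.704 CPM in replicate 1 and 0.582 CPM in replicate 2. Known limb markers were present, though not every gene of each list. The cartilage miRNAs Mir140 and Mir455 held 4.76% of the counts of replicate 1 and 4.56% of replicate 2, the 7 epidermal genes 9.62% and 10.8%, and the muscle list, led by Mir206, 1.15% and 0.499%. Of the 7 muscle genes with a row, 4 had at least 10 counts in both libraries. Mir1a-1 had 1 count in each library, Mir133a-1 had 0 in both, and Mir133a-2 had 0 in replicate 1 and 1 in replicate 2. For both Mir133a hairpins a run of 20 bases recurs in another miRNA gene, so their counts can be too low. The neuronal and glial list held 0.0538% and 0.0435%. Of its 9 genes found by symbol, 5 had at least 10 counts in both libraries. They were led by Mir128-1, Mir338 and Mir128-2, with mean levels of 190, 148 and 121 CPM. Mir124a-1, Mir124a-3 and Mir9-2 had a count of 0 in both libraries. For 8 of these 9 hairpins, those 3 included, a run of 20 bases recurs in another miRNA gene, so a count of 0 there does not show that the miRNA was lacking. The libraries differed most in the muscle list, where 4 of 4 detected genes were higher in replicate 1 and past the threshold used below, which 25.6% of all tested genes passed in that direction.

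Mir204 was the most abundant of the 5 genes and Mir135b the second. Mir211 and Mir135a-2 stood near the lower end of the detected genes, those with at least 10 counts in both libraries. Mir135a-1 missed that minimum in replicate 2. Mir204, known from the retinal pigment epithelium, kidney and choroid plexus, had 1297 counts in replicate 1 and 1870 in replicate 2. These are 304.2 CPM (Wilson 95% interval 288 to 321) and 363 CPM (347 to 380), with a mean of 334 ± 41.6 CPM (SD, n = 2). The intervals did not overlap, and by mean CPM it stood at rank 137 of 1973 genes.

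Mir135b had 306 counts, or 71.8 CPM, in replicate 1 (64.2 to 80.3) and 692 counts, or 134 CPM, in replicate 2 (125 to 145). Its mean was 103 ± 44.2 CPM (SD, n = 2), at rank 191, and its intervals lay further apart than those of Mir204. Mir211 had 34 counts, or 7.97 CPM, in replicate 1 (5.71 to 11.1) and 51 counts, or 9.90 CPM, in replicate 2 (7.53 to 13.0). Its mean was 8.94 ± 1.36 CPM (SD, n = 2), at rank 283, and its intervals overlapped.

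The Mir135a copies had the fewest counts. Mir135a-1 had 22 counts, or 5.16 CPM, in replicate 1 (3.41 to 7.81) and 9 counts, or 1.75 CPM, in replicate 2 (0.919 to 3.32). Mir135a-2 had 11 counts, or 2.58 CPM, in replicate 1 (1.44 to 4.62) and 28 counts, or 5.44 CPM, in replicate 2 (3.76 to 7.86). The copies went opposite ways, Mir135a-1 being higher in replicate 1 and Mir135a-2 lower there. Their means were 3.45 ± 2.41 CPM for Mir135a-1 and 4.01 ± 2.02 CPM for Mir135a-2 (SD, n = 2), at ranks 328 and 318. Summed, a choice made after the values were seen, the copies held 33 counts (7.74 CPM) in replicate 1 and 37 counts (7.18 CPM) in replicate 2. All 5 genes had 0 antisense counts in both libraries.

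**Figure D1:**
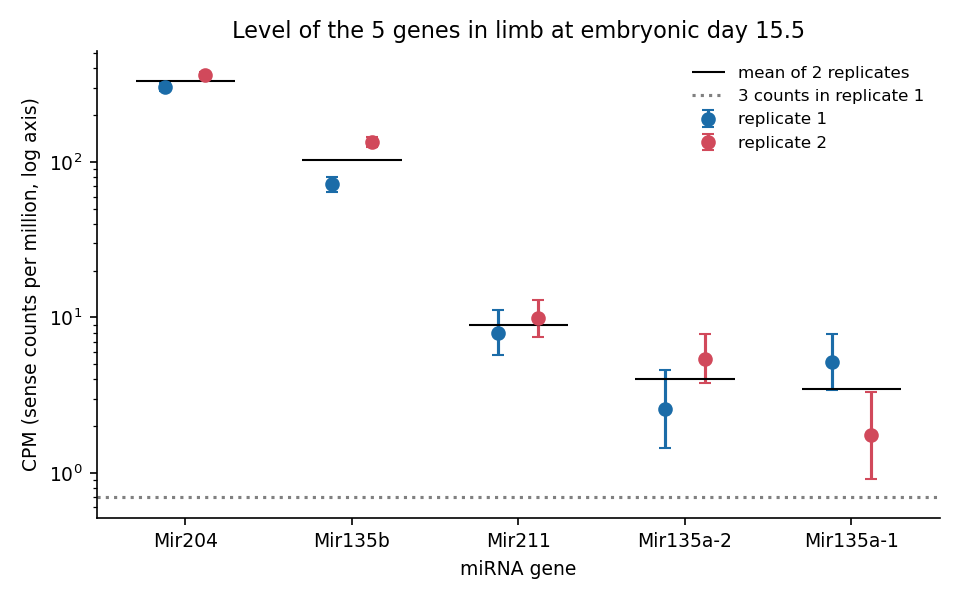
Level in CPM (log axis) of each gene in replicate 1 and replicate 2, with Wilson 95% intervals for counting error as bars, the mean of 2 replicates as a black line and 3 counts of replicate 1 as a dotted line. Mir204 and Mir135b stand at 71.8 CPM or more in both replicates, and the other genes lie under 10 CPM.

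The order of the levels was Mir204, Mir135b, Mir211 and then both Mir135a copies, which were not separated from each other. A read stands for 1 mature strand of 21 to 23 bases, so counts were not divided by length; unequal capture of different sequences was not tested. Mir204 lay 4.24-fold above Mir135b in replicate 1 and 2.70-fold above it in replicate 2. Mir135b lay 9.0-fold above Mir211 in replicate 1 and 13.6-fold above it in replicate 2. Mir204 exceeded Mir211, with which it shares a seed, by 38.1-fold in replicate 1 and 36.7-fold in replicate 2, and the replicate ranges did not overlap for any of these pairs. Of the counts of Mir204 and Mir211 together, Mir204 held 97.4% in replicate 1 and 97.3% in replicate 2.

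Between Mir211 and the Mir135a copies the replicate values did not overlap, but the counting intervals did: 5.71 to 11.1 CPM for Mir211 in replicate 1, and 3.41 to 7.81 CPM for Mir135a-1 in the same library. Mir135a-2 was 0.50 times Mir135a-1 in replicate 1 and 3.11 times it in replicate 2. The order of the Mir135a copies thus turned between the pools, and their place below the other genes leaves out the reads that align to both. All 5 genes together took 0.0392% of the sense counts of replicate 1 and 0.0514% of replicate 2, of which Mir204 made up 77.7% and 70.6%.

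The pools were then compared gene by gene, with the ratio of replicate 1 over replicate 2 and an exact two-sided binomial test given the library totals. The test was run on the 340 genes with at least 10 counts in both libraries and adjusted by Benjamini-Hochberg, with a threshold of 0.05. It sets 2 libraries of 1 group against counting noise and says nothing of a condition. At this depth it called 50.9% of the tested genes, 25.6% higher in replicate 1 and 25.3% lower in replicate 1. Of the 5 genes 4 were tested, and 2 were called, a share close to the 50.9% of all tested genes called in either direction. Both were lower in replicate 1, the direction in which 25.3% of all tested genes were called.

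Mir135b had the firmer difference. Its ratio was 0.534 (exact 95% interval 0.465 to 0.612), or -0.90 on the log2 scale, with an adjusted p of 2.38e-20 in the exact binomial test. The SD of the log2 ratio across the 340 genes was 0.376, and 95% of the genes lay between -0.62 and 0.88. Mir135b stood outside that range, with 4 genes at a lower ratio. Muscle miRNAs moved the other way between the pools, for example Mir206 with 11050 CPM in replicate 1 and 4787 CPM in replicate 2. All 7 epidermal genes were lower in replicate 1, by log2 ratios of -0.08 (Mir200c) to -0.24 (Mir200b). They passed the same test, as did 25.3% of all tested genes in that direction, and at their counts small differences pass it. The part of either tissue in the value of Mir135b was not tested.

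Mir204 had a ratio of 0.838 (0.780 to 0.900), or -0.26 on the log2 scale, inside the range of most genes, with an adjusted p of 2.80e-06 in the exact binomial test. With 1297 and 1870 counts a small difference passes this test, and 145 tested genes had a larger log2 ratio in size. Mir211, with its few counts, had a ratio of 0.805 (0.506 to 1.27) and an adjusted p of 0.511 in the exact binomial test. Its interval holds the ratio of Mir204, and also both a ratio of 1 and the ratio of Mir135b.

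For the Mir135a copies the ratios were large and the counts small. Mir135a-2 had a ratio of 0.475 (0.213 to 0.983) and missed the threshold, with an adjusted p of 0.0694 in the exact binomial test. Mir135a-1 had 9 counts in replicate 2 and was therefore not tested; its ratio was 2.95 (1.31 to 7.29). With a minimum set on the mean of the 2 libraries in place of each, its adjusted p was 0.0128 in the exact binomial test over 357 genes. The summed copies had a ratio of 1.08 (0.653 to 1.77).

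**Figure D2:**
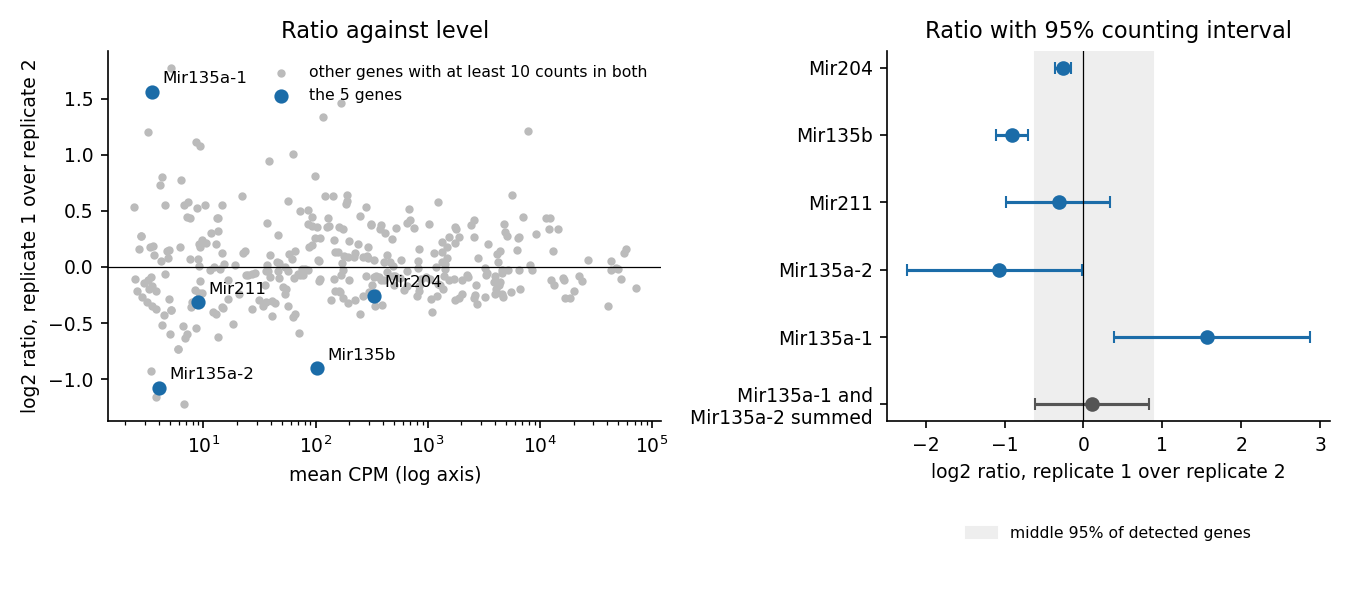
Left, log2 ratio of CPM (replicate 1 over replicate 2) against mean CPM (log axis) for 340 genes in grey and the 5 genes in blue. Right, the same ratio with exact 95% counting intervals, the summed Mir135a copies in dark grey and the range of the middle 95% of detected genes shaded: Mir135b lies wholly below the shaded range, and the copies of Mir135a lie on opposite sides of 0.

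The genes nearest to each of the 4 detected genes were sought by distance of log2 CPM over the 2 libraries, a measure of level with no bearing on function. Nearest to Mir204 were Mir669o (305.4 CPM in replicate 1 and 369 CPM in replicate 2, distance 0.025) and Mir339 (317 and 373 CPM, distance 0.070). Nearest to Mir211 were Mir466n (8.44 and 9.90 CPM, distance 0.082) and Mir3064 (7.74 and 8.93 CPM, distance 0.15). Nearest to Mir135a-2 were Mir129-2 (2.35 and 5.24 CPM, distance 0.15) and Mir217 (2.35 and 4.46 CPM, distance 0.32). Mir135b had no such close match. Its nearest genes were Mir222 (102 and 111 CPM, distance 0.57) and Mir874 (106 and 114 CPM, distance 0.61), both of which differed less between the libraries. With 2 libraries, these distances describe levels only.

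Genomic neighbours did not have like counts. Mirlet7g, a let-7 gene read from the same strand 24627 bases beyond Mir135a-1, had 47871 CPM in replicate 1 and 48328 CPM in replicate 2, against 5.16 and 1.75 CPM for Mir135a-1. Mir6416, on the opposite strand 44072 bases from Mir211, had 0 counts in both libraries. No other miRNA gene with a matched row lay within 50 kb of the 5 genes.

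Among miRNAs known from cell experiments to repress Runx2, the limb profile was led by Mir23a and Mir205, and Mir204 came after these and Mir34c. The list, taken from a set of miRNAs tested together on Runx2, had 15 genes and did not include Mir211 or Mir135b. Of these genes 12 were detected in both libraries, and the list held 4.42% ± 0.00581 of the sense counts (SD, n = 2). Mir23a, of a cluster with miR-27a and miR-24-2, had 26971 ± 821 CPM, and Mir205, a miRNA of stratified epithelia, had 16206 ± 763 CPM (SD, n = 2). From replicate 1 to replicate 2, Mir23a went from 27550.9 to 26390.5 CPM and Mir205 from 15666.5 to 16746 CPM. These opposite differences offset each other in the share, so its small SD does not describe the single genes. Mir34c, a p53 target of the miR-34 family, had 339 ± 57.4 CPM, close to the 334 ± 41.6 CPM of Mir204. Mir338, known from oligodendrocytes and osteoblasts, had 148 ± 15.8 CPM and Mir137, known from neural cells, 72.8 ± 2.46 CPM (SD, n = 2). The 3 members on this list, Mir204, Mir135a-1 and Mir135a-2, made up little of it: without them it held 4.39% ± 0.00169.

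Mir34c and Mir204 had overlapping values in the replicates, with 299 CPM for Mir34c and 304.2 CPM for Mir204 in replicate 1, and 380 CPM for Mir34c and 363 CPM for Mir204 in replicate 2. At the low end, Mir217 had 10 counts in replicate 1 and 23 in replicate 2, on a level with the Mir135a copies. Mir133a-1 had 0 counts in both libraries and Mir133a-2 had 0 and 1. For 9 of the 15 hairpins, those of Mir23a, both Mir30c, both Mir133a, both Mir135a and both Mir218 genes, a run of 20 bases recurs in another miRNA gene, and reads that fit more than 1 copy are missing from these levels.

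Of the 12 detected genes of the list, 4 were lower in replicate 1 and called (Mir204, Mir34c, Mir205 and Mir338), 1 was higher and called (Mir23a), and 7 missed the threshold. Against 25.3% and 25.6% of all tested genes, these counts describe the list and no more. Its median log2 ratio was -0.11, beside -0.02 over all 340 genes, and its median level 59.8 CPM, beside 167 CPM.

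**Figure D3:**
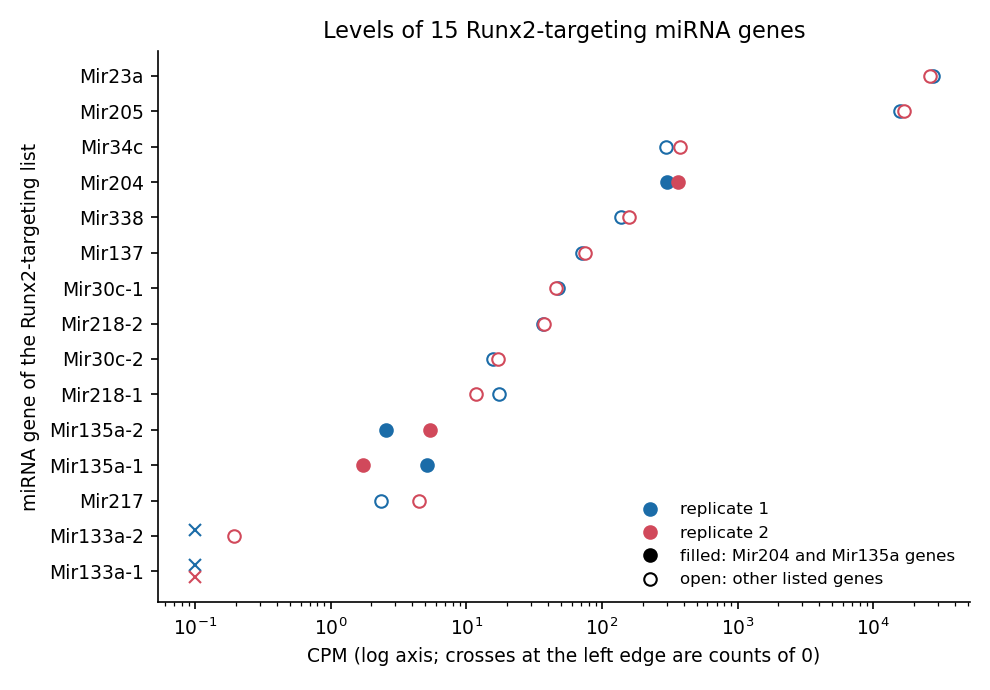
CPM (log axis) of the 15 miRNA genes known to repress Runx2 in replicate 1 and replicate 2, with Mir204 and the Mir135a genes filled and counts of 0 as crosses at the left. Mir23a and Mir205 lie far to the right, Mir204 (304.2 and 363 CPM) beside Mir34c (299 and 380 CPM), and the Mir135a copies between 1.75 and 5.44 CPM.

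The longest annotated 3′ UTR of Runx2 (3904 bases, chromosome 17, minus strand, GRCm38) was searched for letters that pair with the seeds. For miR-204-5p and miR-211-5p, which share 1 seed, these are AAAGGGA (bases 2 to 8), AAGGGAA (bases 2 to 7 followed by A) or both together, AAAGGGAA. For miR-135a-5p they are AAGCCAT (bases 2 to 8), AGCCATA (bases 2 to 7 followed by A) or both together, AAGCCATA. Only the strand of the messenger RNA was searched, and a place that held 2 forms was counted once. The sites are shown with the matched letters in capitals, in windows of 30 bases.
miR-204-5p and miR-211-5p at chr17:44607487-44607516: tcagatgtggtgcactcagAAAGGGAcaag
miR-204-5p and miR-211-5p at chr17:44605390-44605419: agtttacagtacagttatcAAGGGAAtaga
miR-204-5p and miR-211-5p at chr17:44604113-44604142: tgagtttactctgaacttcAAAGGGActat
miR-135a-5p at chr17:44607188-44607217: ggcaatgccttattattatAGCCATAatgg
miR-135a-5p at chr17:44606936-44606965: agtttcttcagtgggctagAGCCATAtcgg
The miR-204 and miR-211 seed thus had 3 matches, which start 408, 2505 and 3782 bases after the stop codon. The miR-135a seed had 2, at 707 and 959 bases. None was of the 8-base form.

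Such matches are common. Of the 1541 other genes with a 3′ UTR at least as long, cut to 3904 bases, 53.2% held at least 1 match of the miR-204 and miR-211 seed, and 4.87% held 3 or more. For the miR-135a seed 44.8% held at least 1 and 11.5% held 2 or more. A match is a description of sequence and does not show that a miRNA bound there.

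The 3′ UTR of Smad5 (4899 bases, chromosome 13, plus strand) was searched after the Runx2 result was known, because Smad5 is the other known target of miR-135 in osteoblasts. It held 1 match of the miR-135a seed, of the 8-base form, 4819 bases after the stop codon.
miR-135a-5p at chr13:56742279-56742308: tactgtattgtgctctcaAAGCCATAactc
Of 840 other 3′ UTRs cut to that length, 10.7% held an 8-base match of this seed and 53.1% any of the 3 forms. No match of these forms was found in it for the miR-204 and miR-211 seed, against 61.1% of the other 3′ UTRs with at least 1. Beside these sequences stand the levels. Mir204 and Mir211 summed had 312 CPM in replicate 1 and 373 CPM in replicate 2, with 5p and 3p reads not separated in the counts. The counted reads of the Mir135a genes came to 7.74 CPM in replicate 1 and 7.18 CPM in replicate 2, and those of all 3 Mir135 genes, Mir135b included, to 79.5 and 142 CPM. The Mir135a counts leave out reads inside the run common to both copies, which holds the whole of miR-135a-5p. They are therefore not a level of the strand that carries this seed.

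**Figure D4:**
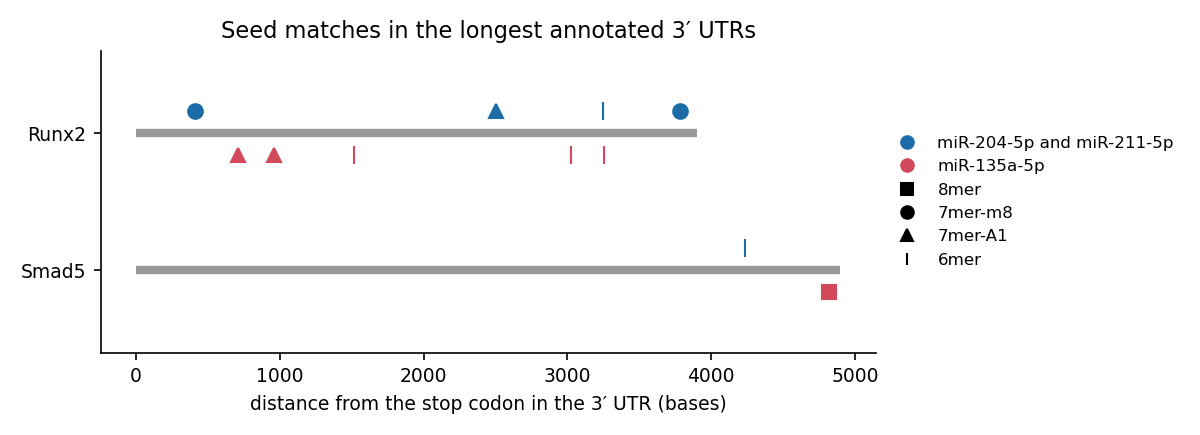
Places of seed matches along the longest annotated 3′ UTRs of Runx2 and Smad5, in bases from the stop codon, with miR-204-5p and miR-211-5p in blue above each line and miR-135a-5p in red below it. Symbols give the form of the match, and short bars mark 6-base matches, which are not in the counts of 3 and 2 for Runx2.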

How the data were processed

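Small RNA below 30 nt from total RNA was sequenced in 2 limb libraries, per the labels. The authors deposited raw counts of reads for each miRNA gene, made on mm10 and annotation M4 according to the README beside them. They have no header; from the values, the first count column is the sum of the other 2, taken as sense and antisense. Aligner and counter: not given in the sources used here. The 4 summary lines of each table entered no library total.

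Identifiers were matched to GENCODE M21 on GRCm38, the assembly of mm10 (1894 of 1973 genes). A count joins the 5p and 3p reads of a hairpin. CPM used sense counts only. Genes were tested with an exact binomial test (scipy 1.17.1, Python 3.11.15). It was checked on simulated counts that held counting noise alone, so the check does not cover variation between pools. Library scaling by edgeR 4.0.16 and DESeq2 1.42.0 (R 4.3.3), strand, filters and each replicate left out were tried as alternatives. Replicates are labelled biological, but with n = 2 the SD is imprecise. Wilson and exact intervals cover counting error only. Molecular identifiers are not named, so duplicate reads could not be told apart, and the intervals can be too narrow.

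Mature strands and hairpins are from RefSeq (GRCm38.p6), with all 5 genes matched; 3′ UTRs are from GENCODE M21. The genes named are the 5, up to 6 of the highest genes of each list, hosts, neighbours, 2 nearest genes of each and tissue markers. The genes and lists were chosen with earlier results of these data known.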

Additional observations from a re-analysis of the deposited data

How the results depend on the processing

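Across the alternatives run, none of the 5 genes' own ratios changed direction. The Mir135a copies summed had the sign of Mir135a-1 and not that of Mir135a-2. The share of the second osteoblast list, given below, did change direction when Mir206 was left out. Under TMM scaling, DESeq2 size factors, all reads as library size, counts irrespective of strand, Fisher's exact test and other count minimums, the log2 ratio of Mir135b ranged from -0.94 to -0.88 and that of Mir204 from -0.29 to -0.23, both called each time. Mir211 (adjusted p from 0.442 to 0.731, exact tests) and Mir135a-2 (0.0641 to 0.131, exact tests) were called in none of the settings in which they were tested; at a minimum of 100 counts neither was tested. Mir135a-1 (log2 ratio 1.56) was called with no minimum (adjusted p = 0.0246, exact binomial test) and with a mean of at least 10 counts (0.0128), since these settings admit its 9 counts; both Mir135a copies summed gave 0.11. The number of genes called ranged from 167 to 184, against 173. Per 1000000 reads of the whole library, the levels were 157 for Mir204, 4.20 for Mir211, 1.61 for Mir135a-1, 1.89 for Mir135a-2 and 48.5 for Mir135b, since the divisor is larger. With either replicate left out, levels were 304.2 to 363 CPM for Mir204, 7.97 to 9.90 for Mir211, 1.75 to 5.16 for Mir135a-1, 2.58 to 5.44 for Mir135a-2 and 71.8 to 134 for Mir135b; a ratio then has no value. The share of the Runx2-targeting list was 4.27% irrespective of strand and 4.39% without the members. With 6-base matches the miR-135a seed had 5 places in the Runx2 3′ UTR. No paired analysis was possible because the series has 1 group. Counts under about 30 limit what can be said of the Mir135a copies.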

Other observations

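A second list held 16 other miRNA genes known from osteoblast studies, of which 15 had a row and 12 were detected. Its share of the sense counts was 3.26% in replicate 1 and 2.95% in replicate 2, and without Mir206, left out after the values were seen, 2.16% and 2.47%, so that the direction rests on that gene. Mir214, of a cluster in the transcript Dnm3os, led with 20274 ± 2148 CPM, followed by the muscle miRNA Mir206 with 7919 ± 4429 CPM and Mir125b-1 with 961 ± 43.9 CPM (SD, n = 2). Mir141, Mir125b-2 and Mir200a had 568 ± 26.4, 494 ± 2.65 and 409.7 ± 22.9 CPM. Each of these 6 lay above Mir204 in mean CPM. Of them, Mir214 was also among the mesenchyme markers, and Mir141 and Mir200a among the epidermal genes, so their levels are not those of bone alone. Mir2861, a miRNA known to promote osteoblast differentiation through Hdac5, had 1 count in replicate 1 and 0 in replicate 2.

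Of the 12 detected genes, 2 were higher in replicate 1 and called, 4 were lower and called, and 6 missed the threshold, beside 25.6% higher and 25.3% lower among all tested genes, with a median log2 ratio of -0.01. For 9 of the 15 hairpins a run of 20 bases recurs in another miRNA gene, and reads that fit more than 1 copy are missing from their levels.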
